A study of Rattus norvegicus with 25 samples.

Results

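The hippocampus of brain-injured rats given thymus nuclear factor was compared with that of brain-injured rats given vehicle alone. The comparison set the 5 TNF-CCI libraries against the 5 Vehicle-CCI libraries, 10 of the 25 RNA-seq libraries of the study, chosen by their group labels and not by any measured value. CCI is controlled cortical impact, in which a piston strikes the exposed cortex above the hippocampus. TNF is the labels' short form for the thymus nuclear factor and not the cytokine tumour necrosis factor, whose gene is written Tnf here. The rats of all groups were male adults of the Sprague-Dawley strain, 6 to 7 weeks old, with no transgene named. Vehicle-sham had no impact and no supplement, Vehicle-CCI the impact and no supplement, and TD-CCI, TCF-CCI and TNF-CCI the impact and 1 of 3 thymus supplements (a thymus dosage, a thymus cytosolic factor and the thymus nuclear factor). The title of the series names a bovine thymus nuclear extract and asks about functional recovery after traumatic brain injury. No dose, time after injury or hemisphere is given in the sources used here. Labels do not tie libraries to individual rats. The p-values therefore measure only how these libraries vary, and part of that may be technical.

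A blow to the cortex kills neurons in the hippocampus and draws a glial response. Astrocytes thicken and make the filament proteins Gfap and vimentin, and microglia turn to clearing debris with lysosomal proteins such as Cd68 and to tagging synapses with complement. Neurons answer with trophic factors such as Bdnf, and fibroblast-like cells and vessels lay down matrix at the wound. A supplement that altered this response could be read in these gene groups.

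The TNF-CCI libraries were the deeper ones, at 38.3 ± 3.95 M counts (M, 1e6; SD, n = 5; range 35.2 to 44.9 M) against 32.6 ± 0.815 M in Vehicle-CCI (range 31.7 to 33.6 M). The 2 groups did not overlap in depth (exact two-sided permutation test, p = 0.00794, the smallest that 5 against 5 libraries can give), so depth and supplement cannot be told apart. The 2 mitochondrial ribosomal RNA genes took 4.87 ± 3.41% of counts in TNF-CCI and 7.89 ± 1.46% in Vehicle-CCI, a difference of -3.02 percentage points (exact two-sided permutation test, p = 0.119). In 4 TNF-CCI libraries the share was 2.95% to 4.17%, below all Vehicle-CCI libraries (5.91% to 9.89%), and in TNF-CCI 2 it was 10.9%. Without TNF-CCI 2 the difference was -4.53 percentage points (exact two-sided permutation test, p = 0.00794). Without each of the other 9 libraries in turn it was -3.52 to -2.52 percentage points (exact two-sided permutation p from 0.0952 to 0.222). Genes known from hippocampal neurons were detected in all 10 libraries, with no other tissue to compare. Prox1, of dentate granule cells, was at 8.63 to 28.2 CPM in Vehicle-CCI and 11.6 to 24.6 CPM in TNF-CCI, and Wfs1, of CA1 pyramidal cells, at 15.5 to 114 CPM and 12.9 to 118 CPM. CPM are counts per 1e6 counts of the library after scaling.

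No gene differed between TNF-CCI and Vehicle-CCI past the threshold. Of 21064 genes tested with edgeR, 0 (0%) had an adjusted p under 0.05 in TNF-CCI versus Vehicle-CCI, and the smallest adjusted p was 0.904, shared by 25 genes. At an unadjusted p under 0.05 there were 729 genes (3.46%), of which 356 were higher in TNF-CCI (1.69%) and 373 lower (1.77%), fewer than the 1053 that 5% of the genes tested makes. All 5 TNF-CCI libraries lay above all 5 Vehicle-CCI libraries in 40 genes (0.19%) and below them in 68 (0.323%). DESeq2 called 1 gene, the immune receptor segment LOC120097130, with 970 at an unadjusted p under 0.05, and limma voom with quality weights called 0, with 1730. The unadjusted count was 1541 without TNF-CCI 2, the TNF-CCI library with the high mitochondrial rRNA share, and 443 without TNF-CCI 1 and Vehicle-CCI 3 together. edgeR called 0 genes in each of these fits.

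The libraries bounded how large a difference could have been missed. The median log2 fold change over all genes tested was -0.003, with 49.4% of genes above 0. The 95% interval of the log2 fold change had a median half-width of 0.498 and lay wholly within -1 to 1, that is within a doubling or a halving, in 15863 genes (75.3%). Pairs of libraries from the same group were about as far apart as pairs across the groups. The root mean square distance in log2 CPM had a median of 0.715 within Vehicle-CCI, 0.775 within TNF-CCI and 0.728 between them.

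**Figure D1:**
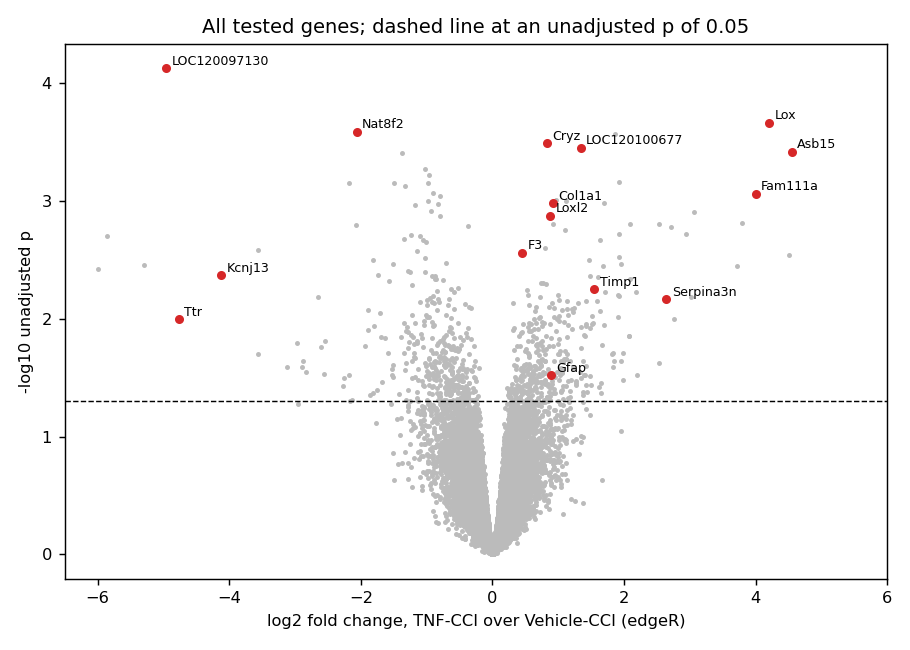
Each grey point is 1 of the 21064 genes tested, with its log2 fold change of TNF-CCI over Vehicle-CCI on the x axis and -log10 of its unadjusted edgeR p on the y axis; named genes are in red and the dashed line marks a p of 0.05. The points spread evenly to both sides of 0, and the farthest red points on either side are genes carried by 1 to 4 libraries.

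Against sham the 2 injured groups gave different counts, and that reading was fragile. TNF-CCI versus Vehicle-sham called 542 genes with edgeR (2.57%), 360 higher (1.71%) and 182 lower (0.864%). Vehicle-CCI versus Vehicle-sham called 0 (0%), with 2669 at an unadjusted p under 0.05 (12.7%). A gene called in the first and not in the second is not thereby shown to differ between TNF-CCI and Vehicle-CCI, and that direct difference is the comparison above. The 542 calls became 0 without TNF-CCI 1, TNF-CCI 5 or Vehicle-sham 4, 322 without TNF-CCI 3, 174 without Vehicle-sham 3, 287 without Vehicle-sham 2, 929 without Vehicle-sham 1, 1107 without Vehicle-sham 5 and 1563 without TNF-CCI 2. Vehicle-CCI versus Vehicle-sham gave 368 calls without Vehicle-CCI 4 and 254 with DESeq2. Below, values over sham are set beside the values over Vehicle-CCI for the same genes. The 3 comparisons share libraries, so they are not independent of one another.

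Genes of reactive astrocytes, which wall off damaged tissue, had the second highest median of the 40 gene lists described here, and none of them passed the test. The median log2 fold change of TNF-CCI over Vehicle-CCI was 0.39, with 17 of 20 members above 0, 3 of them at an unadjusted p under 0.05 (1.69% of all genes on the higher side). Gfap, the main astrocyte filament, was at 3343, 3166, 1003, 1531 and 2276 CPM in Vehicle-CCI 1 to 5 and at 7938, 1970, 2780, 2532 and 5789 CPM in TNF-CCI 1 to 5. TNF-CCI 1 and TNF-CCI 5 lay above all Vehicle-CCI libraries and the other TNF-CCI libraries within their range. Gfap had a log2 fold change of 0.89 (SE 0.39, 95% interval 0.09 to 1.69, edgeR adjusted p = 1), and 0.53 to 1.08 with single libraries left out, lowest without TNF-CCI 1. Over sham, where Gfap was at 743 to 1714 CPM, the log2 fold change was 2.00 in TNF-CCI (edgeR adjusted p = 0.0198) and 1.10 in Vehicle-CCI. In bulk tissue, fewer cells of a type and less RNA per cell cannot be told apart.

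Vim, the intermediate filament vimentin, was at 355, 150, 58.7, 76.5 and 145 CPM in Vehicle-CCI and 319, 180, 199, 90.6 and 431 CPM in TNF-CCI, with full overlap but for TNF-CCI 5. Its log2 fold change was 0.63 (95% interval -0.45 to 1.71, and 0.33 to 1.18 with single libraries left out), beside 2.60 for TNF-CCI over sham (edgeR adjusted p = 0.0219) and 1.97 for Vehicle-CCI over sham. Timp1, an inhibitor of matrix metalloproteinases, was at 8.36, 11, 5.09, 3.00 and 5.24 CPM in Vehicle-CCI and 62.3, 6.68, 6.47, 9.83 and 10.6 CPM in TNF-CCI. Most of its log2 fold change of 1.55 (edgeR adjusted p = 1) came from TNF-CCI 1, and it was 0.36 without that library. Serpina3n, a secreted protease inhibitor, stayed at or under 0.806 CPM in Vehicle-CCI and reached 7.03 CPM in TNF-CCI 5 alone, with 1.05 CPM in the next TNF-CCI library. Slc1a2, the main glutamate transporter of astrocytes, had 205, 41.3, 84.5, 226 and 131 CPM in Vehicle-CCI and 264, 157, 236, 197 and 189 CPM in TNF-CCI (log2 fold change 0.60, 95% interval -0.07 to 1.27). Its group, astrocyte transport and identity, had a median of 0.22 with 9 of 10 above 0. Without TNF-CCI 1 and Vehicle-CCI 3, which stood apart in other genes below, the median of the reactive astrocyte list was 0.01. With single libraries left out it ran from 0.11 without TNF-CCI 1 to 0.64 without Vehicle-CCI 1.

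Microglial genes showed the same small offset without passing the test. The activated microglia list had a median log2 fold change of 0.23 over Vehicle-CCI with 21 of 22 members above 0, beside medians over sham of 1.36 in TNF-CCI, where 13 members were called higher (1.71% of all genes), and 1.08 in Vehicle-CCI, where 0 were (0% of all genes). Without TNF-CCI 1 and Vehicle-CCI 3 the median over Vehicle-CCI was 0.01, and with single libraries left out it ran from 0.12 without TNF-CCI 1 or Vehicle-CCI 4 to 0.48 without Vehicle-CCI 2. Cd68, a lysosomal membrane protein of phagocytes, was at 17.1, 11.2, 2.21, 1.70 and 3.64 CPM in Vehicle-CCI and 14.1, 6.34, 5.90, 6.22 and 12.7 CPM in TNF-CCI. The Vehicle-CCI libraries took both the highest value and the 3 lowest, and no TNF-CCI library fell below 5.90 CPM. Its log2 fold change was 0.34 (95% interval -0.74 to 1.41), from 0.09 without Vehicle-CCI 4 to 0.95 without Vehicle-CCI 1, and over sham (0.626 to 1.94 CPM) it was 2.76 in TNF-CCI (edgeR adjusted p = 0.0201) and 2.43 in Vehicle-CCI.

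Gpnmb, a membrane glycoprotein of lipid-laden microglia, was at 113, 47.6, 12.6, 6.87 and 23.2 CPM in Vehicle-CCI and 94.9, 66.8, 53.6, 18.8 and 84.9 CPM in TNF-CCI. The spread within each group was wider than the gap between their means, with a log2 fold change of 0.65 (95% interval -0.68 to 1.98) that ran from 0.39 without Vehicle-CCI 4 to 1.5 without Vehicle-CCI 1. Over sham Gpnmb had 3.52 in TNF-CCI (edgeR adjusted p = 0.0198) and 2.88 in Vehicle-CCI. Clec7a, the receptor dectin-1, had 19, 20.2, 8.38, 0.30 and 3.32 CPM in Vehicle-CCI and 28.0, 30.8, 12.4, 11.3 and 12.3 CPM in TNF-CCI, the same kind of overlap (log2 fold change 0.89). Fcer1g, the signalling chain of Fc receptors, had 0.51 over Vehicle-CCI and 1.76 over sham (edgeR adjusted p = 0.0198), beside 1.26 for Vehicle-CCI over sham. Apoe, which carries lipid between glia and neurons, was at 2522, 1754, 1359, 2389 and 2635 CPM in Vehicle-CCI and 3095, 1892, 2942, 4589 and 3590 CPM in TNF-CCI. Here TNF-CCI 1, 3, 4 and 5 lay above all Vehicle-CCI libraries and TNF-CCI 2 within them (log2 fold change 0.60, 95% interval 0.05 to 1.15, edgeR adjusted p = 1), and Vehicle-CCI over sham was -0.00. The resting microglia list had a median of 0.11 with 9 of 10 above 0 (-0.13 without TNF-CCI 1 and Vehicle-CCI 3, and -0.02 to 0.34 with single libraries left out). In it Tmem119, a membrane protein of unchallenged microglia, was at 5.98, 4.88, 12.3, 10.5 and 14.1 CPM in TNF-CCI against 8.04, 4.37, 6.04, 5.17 and 5.21 CPM in Vehicle-CCI, with TNF-CCI 3, 4 and 5 above every Vehicle-CCI library (edgeR adjusted p = 1). The fractalkine receptor Cx3cr1 had a log2 fold change of 0.05 (95% interval -0.60 to 0.70).

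**Figure D2:**
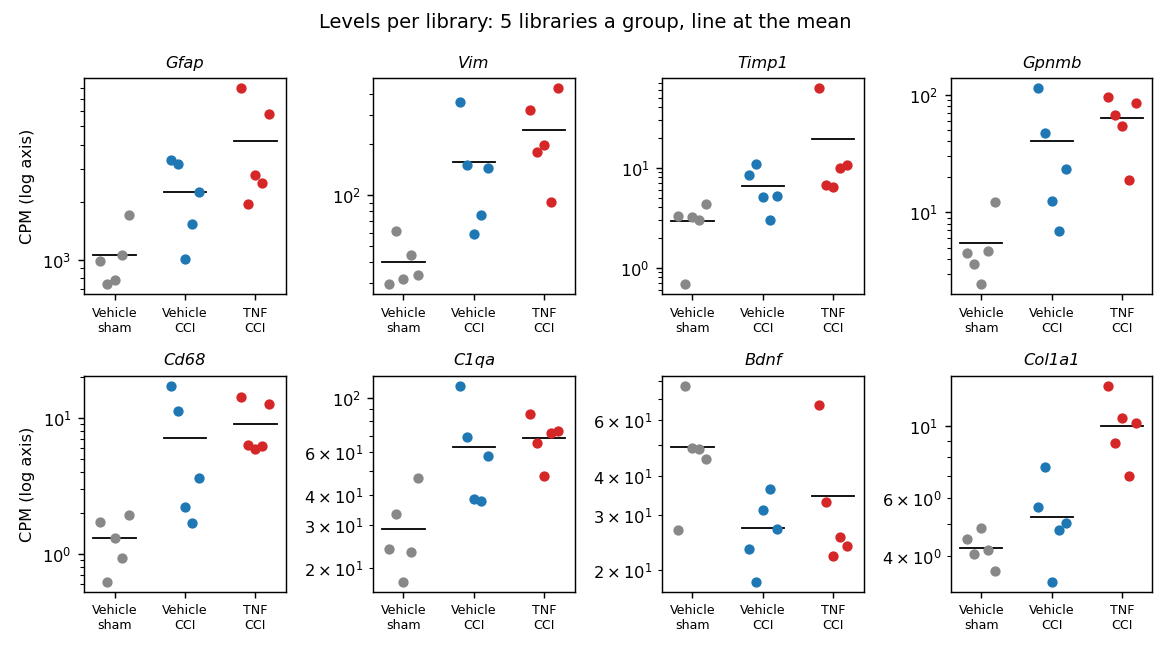
CPM on log axes of 8 genes of the glial, trophic and matrix lists in the 5 Vehicle-sham (grey), 5 Vehicle-CCI (blue) and 5 TNF-CCI (red) libraries, with a line at each group mean. The red and blue points overlap in every panel, while for Gfap, Vim, Cd68 and Gpnmb most injured libraries of both groups lie above most sham libraries.

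Because Gfap and Timp1 are the best known wound genes among those named, and Cryz (all 5 TNF-CCI libraries high) and Fam111a (3 of them high) are protein-coding genes of the 10 with the smallest p on the higher side, described further on, their promoters are given here. RefSeq promoters of the build GRCr8 matched 68 of the 92 genes named, and each runs from 250 bases before the start of the gene to 50 after it. Capitals mark a GC box (GGGCGG) or a CCAAT box (CCAAT) on either strand. TATAAA, and the AP-1 motif TGANTCA, were searched on both strands too and were not found in these 4 windows. The Gfap promoter lies at chr10:88361612-88361911 on the minus strand, that of Timp1 at chrX:3771073-3771372 on the minus strand, that of Cryz at chr2:246211575-246211874 on the plus strand and that of Fam111a at chr1:219065389-219065688 on the plus strand.
Gfap: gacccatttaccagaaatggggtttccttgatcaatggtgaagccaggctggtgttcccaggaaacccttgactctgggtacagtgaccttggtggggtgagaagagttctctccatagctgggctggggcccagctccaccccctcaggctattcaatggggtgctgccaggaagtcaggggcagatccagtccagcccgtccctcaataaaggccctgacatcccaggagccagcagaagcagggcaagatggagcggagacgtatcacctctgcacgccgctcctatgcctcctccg
Timp1: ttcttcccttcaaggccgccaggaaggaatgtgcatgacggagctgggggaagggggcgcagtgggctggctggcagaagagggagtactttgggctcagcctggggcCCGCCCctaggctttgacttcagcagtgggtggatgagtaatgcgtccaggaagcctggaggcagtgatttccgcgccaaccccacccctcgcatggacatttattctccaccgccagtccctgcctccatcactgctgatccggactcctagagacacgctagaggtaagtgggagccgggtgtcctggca
Cryz: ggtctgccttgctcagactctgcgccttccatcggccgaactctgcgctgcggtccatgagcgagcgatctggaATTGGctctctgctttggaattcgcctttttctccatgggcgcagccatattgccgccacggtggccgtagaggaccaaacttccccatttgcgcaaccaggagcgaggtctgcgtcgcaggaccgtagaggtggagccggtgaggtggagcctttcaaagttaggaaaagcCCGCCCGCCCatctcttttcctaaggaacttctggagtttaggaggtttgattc
Fam111a: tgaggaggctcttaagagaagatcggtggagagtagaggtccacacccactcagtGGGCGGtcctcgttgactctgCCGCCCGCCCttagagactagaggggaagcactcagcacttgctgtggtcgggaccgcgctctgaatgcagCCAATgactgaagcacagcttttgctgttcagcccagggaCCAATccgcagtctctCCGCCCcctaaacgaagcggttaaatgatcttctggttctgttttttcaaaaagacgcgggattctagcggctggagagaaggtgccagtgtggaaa
The Fam111a window held 4 GC boxes, of which a pair overlaps, and 2 CCAAT boxes. That of Cryz held 2 overlapping GC boxes and 1 CCAAT box, that of Timp1 held 1 GC box, and that of Gfap held no match. Over all 33469 promoters of the table, 33.1% held a GC box, 37.5% a CCAAT box, 14.2% TATAAA and 7.33% the AP-1 motif, so these matches are common, and they are a description of letters only.

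Complement, cytokine and interferon genes, which carry the inflammatory signals between glia, had medians above 0 with no member called. The complement list had a median log2 fold change of 0.33 with 16 of 18 above 0, and ran from 0.08 without TNF-CCI 1 to 0.56 without Vehicle-CCI 1. C1qa, which starts the classical pathway, was at 112, 69.1, 38.4, 37.9 and 57.7 CPM in Vehicle-CCI and 86.1, 65.0, 47.7, 71.8 and 72.8 CPM in TNF-CCI, near-complete overlap (log2 fold change 0.12, 95% interval -0.50 to 0.75). Serping1, which inhibits C1, was at 48.1, 30.8, 8.19, 7.47 and 29.9 CPM in Vehicle-CCI and 91.4, 23, 25.7, 30.8 and 85.8 CPM in TNF-CCI. TNF-CCI 1 and 5 were again the high libraries for Serping1, with a log2 fold change of 1.04 (95% interval -0.10 to 2.19). Over sham it was 3.25 in TNF-CCI (edgeR adjusted p = 0.0198) and 2.2 in Vehicle-CCI.

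Among cytokines and chemokines the median was 0.17 with 15 of 21 above 0, and ran from 0.01 without TNF-CCI 1 to 0.38 without Vehicle-CCI 2. The mRNA of the cytokine Tnf itself stayed low, at 0.267 to 0.748 CPM in Vehicle-CCI and 0.211 to 0.781 CPM in TNF-CCI (log2 fold change 0.17), and Il1b at 0.267 to 1.04 and 0.290 to 1.02 CPM (-0.05). Tgfb1, which damps inflammation and drives scarring, had 0.53 over Vehicle-CCI and 1.87 over sham in TNF-CCI (edgeR adjusted p = 0.0219), beside 1.34 for Vehicle-CCI over sham. The tumour necrosis factor receptor Tnfrsf1a led its list in this comparison at 0.34 (95% interval -0.32 to 0.99). The list of TNF receptors and NF-kB had a median of 0.11, with 12 of 14 intervals within -1 to 1. Of the interferon response genes 14 of 18 lay above 0, with a median of 0.34 (0.20 to 0.48 with single libraries left out). Ifit1, which binds foreign RNA, was at 3.27, 0.201, 0.253, 0.767 and 0.116 CPM in Vehicle-CCI and 6.56, 0.112, 1.5, 5.66 and 4.12 CPM in TNF-CCI, so 3 TNF-CCI libraries exceeded all Vehicle-CCI libraries and TNF-CCI 2 was the lowest of the 10.

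The MHC class II list, whose products present antigen on microglia and invading cells, had the highest median, 0.41 with 7 of 9 above 0, and a median of -0.46 without TNF-CCI 1 and Vehicle-CCI 3. With single libraries left out it ran from -0.34 without TNF-CCI 1 to 0.76 without Vehicle-CCI 1. Cd74, the class II chaperone, was at 77.9, 22, 14.0, 10.2 and 21.3 CPM in Vehicle-CCI and 116, 23.4, 8.24, 13.4 and 32.1 CPM in TNF-CCI. Replicate 1 of each group was the highest. The log2 fold change of Cd74 was 0.41, and -0.59 without TNF-CCI 1. The class II chain RT1-Da moved in the same libraries (0.63, and -0.14 without TNF-CCI 1). T-cell genes were near the floor of detection. The list had 7 tested members of 12 and a median of 0.23. Cd8a was at 0.0334 to 1.21 CPM in Vehicle-CCI and 0.256 to 1.09 CPM in TNF-CCI, and the T-cell kinase Zap70 was at 1.91, 2.50, 1.61, 4.44 and 3.72 CPM and 2.29, 1.32, 0.711, 2.00 and 1.51 CPM (log2 fold change -0.86, edgeR adjusted p = 1).

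Lysosomal and stress lists had medians from -0.13 to 0.19, and none of their genes passed the test. The lysosome list had a median of 0.14 with all 16 of 16 intervals within -1 to 1. Among them Npc2, a cholesterol carrier, had 0.28 over Vehicle-CCI and 1.28 over sham (edgeR adjusted p = 0.0198), beside 1.00 for Vehicle-CCI over sham. Oxidative and metal stress had a median of 0.19, with 12 of 16 intervals within -1 to 1 (75.3% of all genes). Its metallothioneins, which bind zinc and copper, had 0.33 for Mt1 and 0.60 for Mt2A over Vehicle-CCI, beside 1.41 and 1.61 over sham (edgeR adjusted p = 0.0198 for both). Vehicle-CCI over sham was 1.08 for Mt1 and 1.01 for Mt2A. Cell death and p53 had a median of 0.00, with 13 of 14 intervals within -1 to 1. The death receptor Fas was its highest member (0.49, 95% interval -0.16 to 1.14). Endoplasmic reticulum stress had -0.02, with 12 of 12 intervals within -1 to 1, and glucocorticoid receptor and targets -0.10, with 9 of 9. Cytosolic heat shock had -0.13, with 7 of 9. Its co-chaperone Bag3 was at 49.8, 6.57, 9.08, 6.99 and 13.6 CPM in TNF-CCI against 4.78 to 12.2 CPM in Vehicle-CCI, high in TNF-CCI 1 alone (log2 fold change 1.11, and 0.19 without TNF-CCI 1).

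Trophic factors and activity-induced genes of neurons had medians above 0 that leaned on TNF-CCI 1. Bdnf, the neurotrophin that supports granule and pyramidal cells, was at 23.3, 18.3, 31.1, 36.3 and 27 CPM in Vehicle-CCI and 67.2, 33.0, 22.2, 25.4 and 23.9 CPM in TNF-CCI. TNF-CCI 1 lay above every other injured library shown, and the other 4 fell within the Vehicle-CCI range. The log2 fold change of Bdnf was 0.34 (95% interval -0.22 to 0.89) with all libraries and -0.06 without TNF-CCI 1. Over sham, at 26.9 to 77.2 CPM, it was -0.52 in TNF-CCI and -0.86 in Vehicle-CCI. Its receptor Ntrk2 had 0.39 (95% interval -0.15 to 0.93). Fgf2, a growth factor of astrocytes and progenitors, was at 2.74, 1.29, 0.949, 2.70 and 1.72 CPM in Vehicle-CCI and 4.37, 3.42, 2.40, 3.10 and 3.28 CPM in TNF-CCI, with 4 of 5 TNF-CCI libraries above every Vehicle-CCI library (log2 fold change 0.82, edgeR adjusted p = 1). Igf1, an insulin-like growth factor that microglia make after injury, had 0.65 over Vehicle-CCI and 1.83 over sham (edgeR adjusted p = 0.0198). Its Vehicle-CCI value over sham was 1.18. The list of neurotrophins and growth factors had a median of 0.33, with 10 of 12 above 0, and 0.12 without TNF-CCI 1.

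The immediate early genes, switched on within minutes of neuronal firing, had a median of 0.24 with 14 of 17 above 0, and 0.11 without TNF-CCI 1. In 1 member every TNF-CCI library lay above every Vehicle-CCI library (0.19% of all genes). Arc, a synaptic capsid-like protein, was at 29.9, 22, 56.7, 49.6 and 39.3 CPM in Vehicle-CCI and 237, 29.5, 48.6, 42.2 and 63.1 CPM in TNF-CCI, high in TNF-CCI 1 (log2 fold change 1.09, and 0.22 without that library). Fosb was at 1.77, 1.52, 2.18, 2.60 and 2.12 CPM and 5.34, 3.42, 2.50, 2.89 and 2.06 CPM (log2 fold change 0.67, edgeR adjusted p = 1), and Fos had 0.50. Nr4a2, an orphan nuclear receptor, ran the other way, at 28.3, 25.3, 57.3, 61.5 and 31.2 CPM in Vehicle-CCI and 26.8, 32.7, 25.5, 33.6 and 29.9 CPM in TNF-CCI (log2 fold change -0.45). Its TNF-CCI values sat in a narrow band inside the wide Vehicle-CCI range.

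Synaptic and neuronal lists had medians near 0, and most of their intervals lay within -1 to 1. The excitatory synapse list had a median of -0.01 with 10 of 21 above 0 and 19 of 21 intervals within -1 to 1. The synaptic vesicle list had 0.08 and 17 of 18, and the voltage-gated channels 0.01 and 20 of 20 (75.3% of all genes). Camk2a, the kinase of synaptic potentiation, was at 1862, 1209, 1416, 3818 and 2299 CPM in Vehicle-CCI and 3291, 1403, 2564, 3353 and 3401 CPM in TNF-CCI (log2 fold change 0.40, 95% interval -0.21 to 1.01). Gria2, the glutamate receptor subunit that limits calcium entry, was at 965, 776, 1354, 1098 and 881 CPM and 743, 1317, 547, 681 and 896 CPM (log2 fold change -0.28). TNF-CCI 1, 3 and 4 lay below every Vehicle-CCI library, and TNF-CCI 2 and 5 within their range. Over sham the log2 fold change of Gria2 was -0.80 in TNF-CCI (edgeR adjusted p = 0.0432) and -0.52 in Vehicle-CCI. Snap25, of the vesicle fusion machinery, had -0.21. The potassium channel Kcnd2 had -0.35 over Vehicle-CCI and -1.23 over sham (edgeR adjusted p = 0.0393), beside -0.88 for Vehicle-CCI over sham.

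Genes of single neuron classes had medians near 0, with a smaller share of intervals within -1 to 1 in interneurons and newborn neurons. Intervals within -1 to 1 numbered 6 of 7 in the CA1 list, 10 of 10 in CA2 and CA3, 6 of 7 in dentate granule neurons, 12 of 17 in interneurons and 6 of 11 in neurogenesis (75.3% of all genes). The CA1 list had a median of 0.01, with Wfs1 at 30.7, 15.5, 35.3, 114 and 22.7 CPM in Vehicle-CCI and 79.1, 12.9, 40.2, 33.7 and 118 CPM in TNF-CCI. The CA2 and CA3 list had -0.03 (-0.07 for Bok), and the dentate granule list -0.08 (0.27 for Prox1). Interneurons and GABA synapse had -0.05, with Gad1, which makes GABA, at -0.12. The neuropeptide Npy of that list was at 7.01, 8.14, 7.65, 19.7 and 9.42 CPM in Vehicle-CCI and 94.8, 5.67, 8.82, 14.4 and 14.9 CPM in TNF-CCI, high in TNF-CCI 1 alone. Its log2 fold change was 1.42, and 0.08 without TNF-CCI 1. Neurogenesis and proliferation had a median of 0.17. Dcx, of newborn neurons, had 0.31, and the granule cell factor Neurod1 had -0.63 over Vehicle-CCI and -1.83 over sham (edgeR adjusted p = 0.0231), beside -1.20 for Vehicle-CCI over sham.

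Myelin genes leaned below 0, and for Mbp that lean was gone without Vehicle-CCI 4. The median of the myelin list was -0.12, 11 of 12 members lay below 0 and 12 of 12 intervals within -1 to 1. Mbp, a main protein of the sheath, was at 6236, 5775, 4735, 15601 and 6453 CPM in Vehicle-CCI and 8154, 4163, 8190, 6056 and 9184 CPM in TNF-CCI. Vehicle-CCI 4 stood above all the others. The log2 fold change of Mbp was -0.12, and 0.31 without Vehicle-CCI 4. Oligodendrocyte precursors had a median of 0.07. In this list the matrix proteoglycan Vcan was at 66.8, 57.5, 53.6, 53.2 and 47.3 CPM in Vehicle-CCI and 75.7, 91.7, 58.8, 66.3 and 63.0 CPM in TNF-CCI (log2 fold change 0.35, edgeR adjusted p = 1).

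Genes of the extracellular matrix were the group with most members at an unadjusted p under 0.05 on the higher side, 4 of 20 (all genes, 1.69%), and none passed the adjusted test. Lox, 1 of the 4, had a log2 fold change of 4.20, and 0.19 without TNF-CCI 1. The fibroblasts and matrix list had a median of 0.30 with 16 of 20 above 0, and 0.28 without TNF-CCI 1 and Vehicle-CCI 3. Its median over Vehicle-CCI was 0.40 in TD-CCI and 0.19 in TCF-CCI. For TNF-CCI versus the mean of TD-CCI and TCF-CCI it was -0.02, so the lean was not particular to TNF-CCI. Col1a1, the alpha 1 chain of type I collagen, was at 5.62, 7.48, 3.32, 4.80 and 5.03 CPM in Vehicle-CCI and 13.2, 8.87, 10.5, 7.02 and 10.2 CPM in TNF-CCI. All TNF-CCI libraries but TNF-CCI 4 lay above every Vehicle-CCI library. The log2 fold change of Col1a1 was 0.93 (SE 0.25, 95% interval 0.41 to 1.44, edgeR adjusted p = 0.904). Over sham (3.59 to 4.85 CPM) it was 1.24 in TNF-CCI (edgeR adjusted p = 0.0198) and 0.31 in Vehicle-CCI.

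Fn1, fibronectin, was at 17.4, 19.6, 8.85, 13.3 and 21.7 CPM and 28.0, 14.2, 27.5, 17 and 33.2 CPM (log2 fold change 0.57, edgeR adjusted p = 1). Fbln2, a fibulin of the elastic matrix and among the 20 genes of smallest p, was at 19.5, 24.0, 19.4, 21.6 and 21.7 CPM in Vehicle-CCI and 71.7, 17.6, 42.2, 31.4 and 43.9 CPM in TNF-CCI, with TNF-CCI 2 the lowest of the 10 and the other 4 TNF-CCI libraries the highest. Its log2 fold change was 0.96 (95% interval 0.43 to 1.49). Loxl2, which cross-links collagen, was chosen after its values were seen and did not overlap between the groups, at 7.18, 4.78, 6.61, 5.24 and 4.48 CPM in Vehicle-CCI and 17.5, 10.6, 8.26, 7.35 and 8.18 CPM in TNF-CCI (log2 fold change 0.88, edgeR adjusted p = 0.967). F3, the tissue factor that starts clotting, was chosen in the same way and did not overlap either, at 18.8, 19.8, 19.8, 18.6 and 14.5 CPM and 25.9, 25.3, 24.4, 22 and 27.9 CPM (log2 fold change 0.46). Endothelium and blood-brain barrier had a median of 0.17 with 15 of 17 above 0, and mural cells 0.19. The tight junction protein Cldn5 had 0.05 (95% interval -0.37 to 0.48) and the receptor Kdr of vascular endothelial growth factor 0.56. The apelin receptor Aplnr had 0.99 over Vehicle-CCI and 2.23 over sham (edgeR adjusted p = 0.0324), beside 1.24 for Vehicle-CCI over sham.

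**Figure D3:**
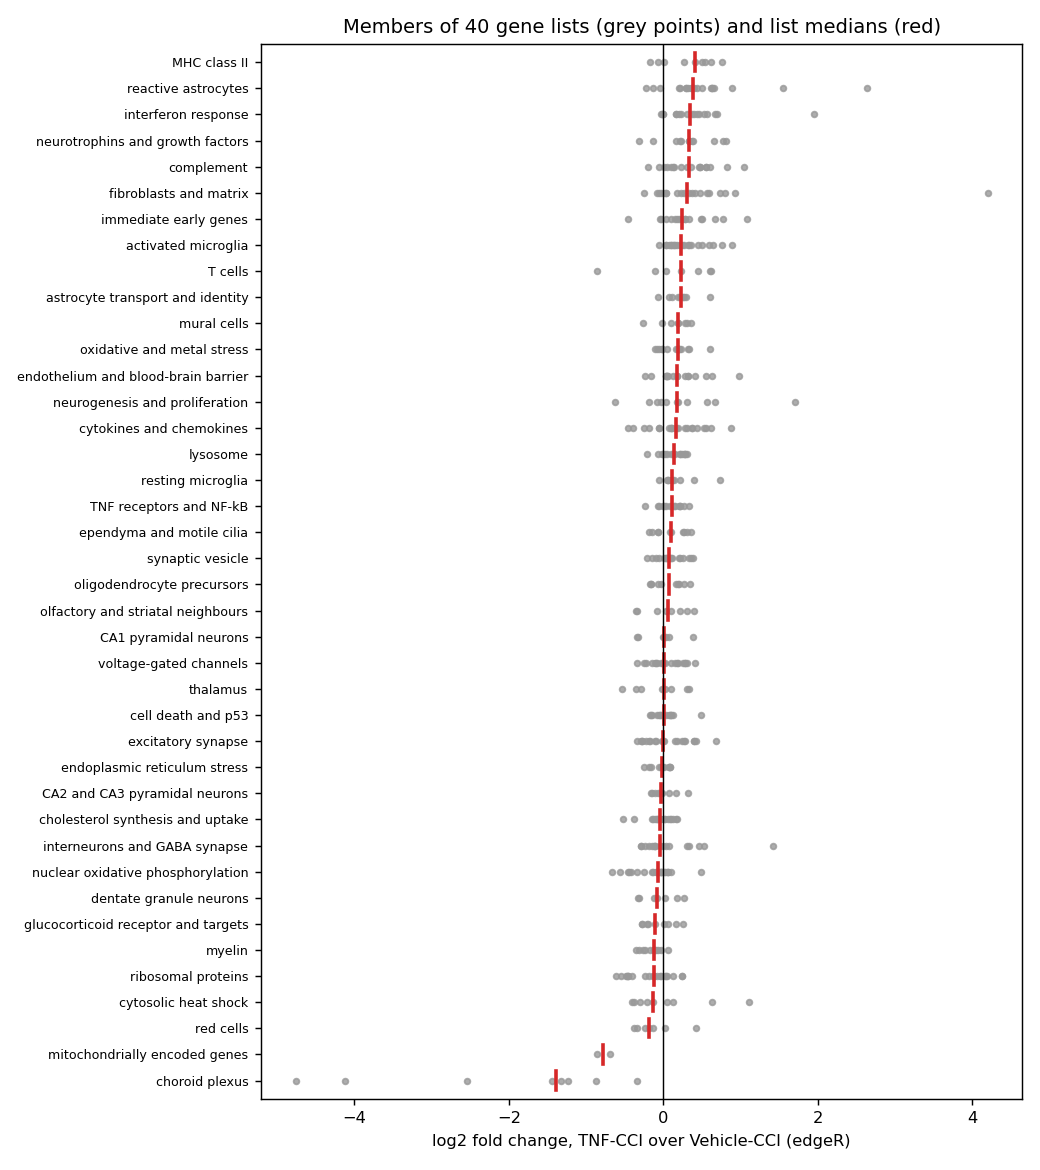
Each grey point is the log2 fold change of 1 list member in TNF-CCI over Vehicle-CCI (edgeR), lists are rows sorted by their median, and red bars are the medians. The medians of all lists but mitochondrially encoded genes and choroid plexus lie between -0.18 and 0.41, and the far points on the right are Lox, Serpina3n, Ifit1 and Sox11.

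Metabolic lists leaned slightly below 0. Cholesterol synthesis and uptake had a median of -0.04, with Hmgcs1, an early enzyme of the pathway, at -0.37 over Vehicle-CCI, -1.27 over sham in TNF-CCI (edgeR adjusted p = 0.0231) and -0.90 over sham in Vehicle-CCI. Idi1, further down the pathway, was at 37.3, 42.4, 71.5, 72.0 and 38.7 CPM in Vehicle-CCI and 31.6, 72.5, 31.5, 26.4 and 20.7 CPM in TNF-CCI, where TNF-CCI 2 was as high as the highest Vehicle-CCI library and the other 4 lay below all Vehicle-CCI libraries. Nuclear oxidative phosphorylation had a median of -0.07 with 17 of 24 below 0. Uqcrc2, of complex III, had 0.49 (edgeR adjusted p = 1), and cytochrome c, Cycs, was at 355, 379, 439, 420 and 371 CPM in Vehicle-CCI and 219, 479, 234, 235 and 163 CPM in TNF-CCI. For Cycs, TNF-CCI 2 lay above and the other 4 TNF-CCI libraries below all Vehicle-CCI libraries. Ribosomal proteins had a median of -0.12, and their Rpl37 was at 113, 152, 124, 142 and 117 CPM in Vehicle-CCI and 63.3, 137, 81.6, 77.9 and 62.6 CPM in TNF-CCI, with TNF-CCI 2 inside the Vehicle-CCI range and the other 4 below it. The mitochondrially encoded list had 2 of 15 members in the table under a matching name, both ribosomal RNAs, and a median of -0.78. mt-Rnr1 was at 20384, 23794, 32702, 34041 and 20082 CPM in Vehicle-CCI and 10860, 26217, 13999, 11217 and 9689 CPM in TNF-CCI, again with TNF-CCI 2 high. edgeR called 0 genes when the mitochondrial rRNA share was added to the fit.

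The 20 genes of smallest p, 10 in each direction, were taken by rule and none was called. Cryz, an oxidoreductase of quinones also found as a lens crystallin (chromosome 2, 243552037 to 243580369), was at 5.30, 4.06, 4.68, 5.44 and 3.98 CPM in Vehicle-CCI and 7.15, 6.40, 12.1, 6.50 and 9.34 CPM in TNF-CCI. Every TNF-CCI library lay above every Vehicle-CCI library. The group means were 8.30 ± 2.44 and 4.69 ± 0.676 CPM (SD over 5 libraries), and the log2 fold change was 0.82 with an SE of 0.20 (edgeR adjusted p = 0.904) and 1.01 over sham (edgeR adjusted p = 0.0198). All gene positions here are on mRatBN7.2, from the first to the last annotated base. Counts per gene do not separate coding from untranslated exons.

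A pair of long noncoding RNAs 53.7 kb apart also did not overlap. LOC120100677 (chromosome 2, 28733015 to 28741444) was at 2.62, 3.83, 2.28, 2.47 and 2.41 CPM in Vehicle-CCI and 6.15, 9.29, 5.90, 6.96 and 6.25 CPM in TNF-CCI (log2 fold change 1.34). LOC102550768 (chromosome 2, 28795167 to 28849077) was at 6.80, 8.49, 8.79, 5.70 and 8.23 CPM and 13.3, 15.8, 21.8, 22.2 and 9.28 CPM (1.12). Both were lower in Vehicle-CCI than in sham on average (-1.08 and -0.95, not called), and their TNF-CCI values were near those of sham (0.26 and 0.16). Both were picked for a small p against these same Vehicle-CCI libraries. Genes picked so tend to have low values there, so the comparison with sham is no separate evidence. Of the other noncoding genes on the higher side, LOC102547255 was at 0.236 to 0.669 CPM in Vehicle-CCI and 0.589 to 2.66 CPM in TNF-CCI, and LOC108351754 at 0.294 to 0.785 and 0.512 to 3.23 CPM, each with some overlap.

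On the lower side the smallest p belonged to LOC120097130 (chromosome 15, 26111843 to 26113948), which RefSeq lists as a V segment, a piece from which immune receptor genes are joined. It was at 4.71, 3.60, 10.8, 0.0334 and 5.73 CPM in Vehicle-CCI and 0.366, 0.281, 0.0526, 0.102 and 0 CPM in TNF-CCI. Vehicle-CCI 4 and the 5 TNF-CCI libraries were all near 0, below the other 4 Vehicle-CCI libraries. Its log2 fold change was -4.96 (SE 1.05, edgeR adjusted p = 0.904, DESeq2 adjusted p = 0.0484), and over sham, at 4.60 to 9.85 CPM, it was -5.46 (edgeR adjusted p = 0.0198). V segments resemble each other, so how the reads were shared between them is uncertain. Nat8f2, of a family of acetyltransferases, was at 1.77, 2.04, 0.569, 1.57 and 2.65 CPM in Vehicle-CCI and 0.561, 0.253, 0.342, 0.691 and 0.206 CPM in TNF-CCI, with only Vehicle-CCI 3 inside the TNF-CCI range (log2 fold change -2.06).

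LOC120099835 did not overlap, at 9.57, 14.2, 18.0, 12.5 and 18.0 CPM in Vehicle-CCI and 7.07, 8.30, 7.00, 4.76 and 9.44 CPM in TNF-CCI. Its neighbour LOC120099832, 265.2 kb away, owed its place to Vehicle-CCI 2, at 17.3 CPM against at most 2.36 CPM in the other Vehicle-CCI libraries. LOC103692338, LOC120101078 and LOC120093072 did not overlap either, with log2 fold changes of -1.49, -1.33 and -0.90 and means in Vehicle-CCI of 2.23 ± 0.464, 1.31 ± 0.371 and 7.02 ± 1.58 CPM (SD over 5 libraries). LOC102552995, LOC120101913 and LOC108353207, all long noncoding RNAs, overlapped at -1.37, -1.02 and -0.97.

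**Figure D4:**
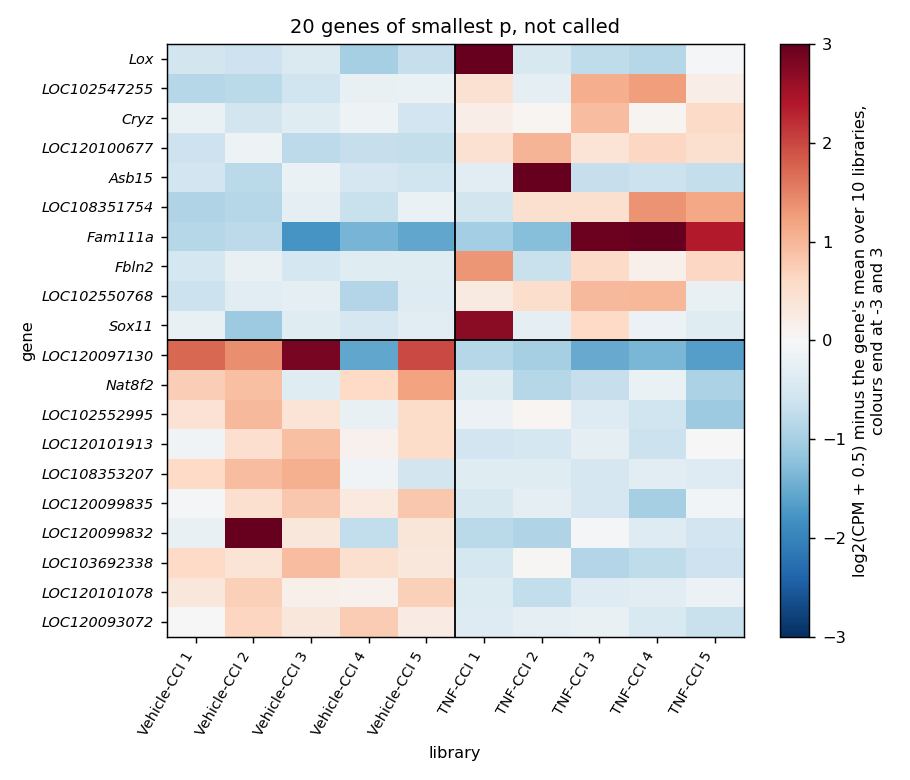
Rows are the 20 genes of smallest p (10 higher above the line, 10 lower below it), columns the 5 Vehicle-CCI and 5 TNF-CCI libraries, and colour is log2(CPM + 0.5) minus the gene's mean over the 10 libraries. For Cryz, LOC120100677 and LOC102550768 every TNF-CCI cell has a higher value than every Vehicle-CCI cell. TNF-CCI 5 still lies below the mean of LOC102550768. Lox, Asb15, Sox11 and LOC120099832 have 1 dark cell each and Fam111a 3.

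Several of the largest fold changes were the work of 1 to 3 libraries. Lox, a lysyl oxidase that hardens collagen, was at 1.94, 1.81, 2.15, 1.30 and 1.72 CPM in Vehicle-CCI and 157, 2.05, 1.61, 1.49 and 2.97 CPM in TNF-CCI. Its log2 fold change of 4.20 was 0.19 without TNF-CCI 1. Sox11, a factor of immature neurons, was at 30.8, 3.45, 6.76, 3.71 and 3.24 CPM in TNF-CCI against 1.73 to 3.59 CPM in Vehicle-CCI (1.70, and 0.54 without TNF-CCI 1). Asb15, of a family that recruits ubiquitin ligases, was at 0.488, 40.9, 0.263, 0.282 and 0.247 CPM in TNF-CCI, high in TNF-CCI 2 only, and at 0.201 to 0.569 CPM in Vehicle-CCI. The log2 fold change of Asb15 was 4.55, and -0.14 without TNF-CCI 2. Fam111a, a protease that acts at replication forks, was at 1.24, 0.954, 26.7, 35.1 and 17.7 CPM in TNF-CCI against 1.44, 1.55, 0.538, 0.834 and 0.698 CPM in Vehicle-CCI. TNF-CCI 3, 4 and 5 were high, TNF-CCI 1 and 2 were at the Vehicle-CCI level, and 1 TD-CCI library reached 44.6 CPM. LOC100912642, a protein-coding gene chosen after its values were seen, was high in the same 3 libraries (0.122, 0.112, 7.40, 4.15 and 3.24 CPM in TNF-CCI, 0.0582 to 0.30 CPM in Vehicle-CCI). The log2 fold change of Fam111a was 4.00 (edgeR adjusted p = 0.904), and over sham 4.36 (edgeR adjusted p = 0.0364).

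TNF-CCI 1 stood far above the rest most often. In 41 of the 21064 genes tested it lay at least 2 log2 units above all the other 9 libraries. That number was 29 in Vehicle-CCI 3 and 0 to 3 in each of the other 8. By any margin TNF-CCI 1 was the highest of the 10 in 12.6% of genes. Higher shares were those of Vehicle-CCI 2 (16%), Vehicle-CCI 4 (15.3%) and TNF-CCI 2 (13.8%). On the lower side Vehicle-CCI 4 lay at least 2 log2 units below all the others in 41 genes, TNF-CCI 4 in 17, and each of the other 8 in 1 to 9. Besides Lox, the genes high in TNF-CCI 1 included genes chosen after their values were seen. Trh, the precursor of thyrotropin-releasing hormone, was at 56.3, 0.954, 1.03, 1.82 and 1.32 CPM in TNF-CCI and 0.701 to 1.35 CPM in Vehicle-CCI. Dbh, which makes noradrenaline, was at 21.9, 0.645, 0.395, 0.256 and 0.928 CPM and 0.353 to 0.701 CPM. Inhba, a subunit of activin, was at 106, 14.1, 5.97, 6.09 and 7.34 CPM and 5.96 to 14.0 CPM, and Ptgs2, the inducible cyclooxygenase, at 67.5, 9.12, 5.71, 5.56 and 8.47 CPM and 4.11 to 9.37 CPM. Without TNF-CCI 1 the log2 fold changes were 0.45 for Trh, -0.03 for Dbh, -0.22 for Inhba and 0.09 for Ptgs2, against 3.71, 3.07, 1.52 and 1.51 with it. The same library had the highest Arc, Bdnf, Npy, Timp1 and Bag3 of the 10. Several of these genes, among them Arc, Bdnf, Inhba and Ptgs2, are known as genes that neurons induce on strong activity. Fos (20.2 CPM) and Fosb (5.34 CPM), of the same immediate early list as Arc, were also highest of the 10 in TNF-CCI 1. Nr4a2 of that list was not high there, at 26.8 CPM against 25.3 to 61.5 CPM in Vehicle-CCI. Why TNF-CCI 1 stood apart was not tested.

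**Figure D5:**
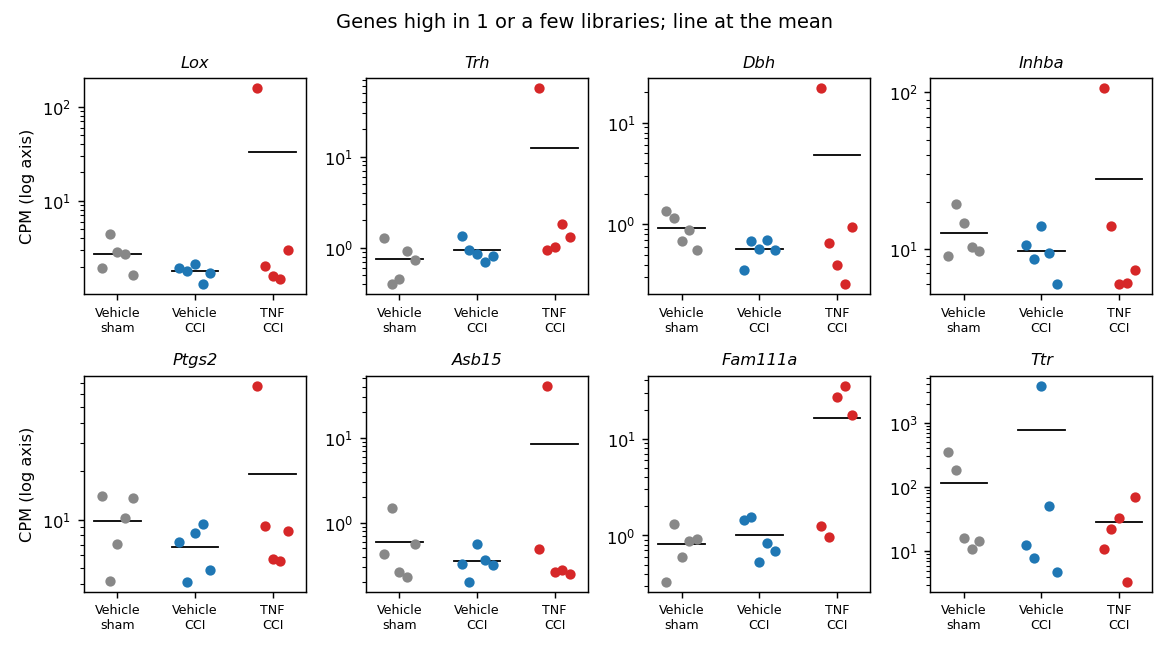
CPM on log axes of 8 genes in the 5 Vehicle-sham (grey), 5 Vehicle-CCI (blue) and 5 TNF-CCI (red) libraries, with a line at each group mean. The mean is set by TNF-CCI 1 for Lox, Trh, Dbh, Inhba and Ptgs2, by TNF-CCI 2 for Asb15, by TNF-CCI 3, 4 and 5 for Fam111a and by Vehicle-CCI 3 for Ttr.

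Among the neighbouring tissues that a dissection of the hippocampus can carry along, choroid plexus set Vehicle-CCI 3 apart. The median of the choroid plexus list was -1.38, 8 of 8 members lay below 0, and the median was 0.45 without TNF-CCI 1 and Vehicle-CCI 3. Its summed level ran over 16.1 to 3995 CPM in Vehicle-CCI, 8.96 to 96.6 CPM in TNF-CCI and 20.8 to 389 CPM in sham. Ttr, the thyroid hormone carrier made there, was at 12.5, 7.77, 3757, 50.6 and 4.86 CPM in Vehicle-CCI and 11, 22.2, 33.4, 3.35 and 71.2 CPM in TNF-CCI, and the channel Kcnj13 at 0.913, 1.01, 104, 1.23 and 0.698 and 1.07, 1.52, 1.32, 0.666 and 1.61 CPM. The log2 fold changes were -4.76 and -4.13 with Vehicle-CCI 3 and 0.58 and 0.36 without it. Ependyma and motile cilia had a median of 0.10, with the dynein Dnah12 at 159, 105, 69.8, 50.4 and 77.3 CPM in Vehicle-CCI and 129, 137, 135, 54.0 and 136 CPM in TNF-CCI. Thalamus had 0.01 (-0.53 for the glutamate transporter Slc17a6), olfactory and striatal neighbours 0.07, and red cells -0.18 (-0.24 for the haemoglobin chain Hbb, 95% interval -1.37 to 0.90). Their part in the results above was not tested.

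Set against the other supplements, TNF-CCI also gave no calls. In TNF-CCI versus the mean of TD-CCI and TCF-CCI, edgeR called 0 of 21064 genes (0%), with 895 at an unadjusted p under 0.05 (4.25%) and a smallest adjusted p of 0.0888, that of Asb15, the gene of TNF-CCI 2. TD-CCI and TCF-CCI each called 0 genes over Vehicle-CCI, with 368 and 304 genes at an unadjusted p under 0.05. These comparisons share the Vehicle-CCI libraries with the main one. Over Vehicle-CCI, Gfap had a log2 fold change of 0.89 with TNF, 0.29 with TD and -0.29 with TCF. That of Cd68 was 0.34, -0.08 and -0.84, that of Col1a1 0.93, 1.11 and 0.56, and that of Cryz 0.82, 0.33 and 0.25. Against the mean of TD-CCI and TCF-CCI, TNF-CCI had 0.89 for Gfap, 0.79 for Cd68, 0.09 for Col1a1 and 0.53 for Cryz.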

How the data were processed

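RNA-seq was read from 25 hippocampus libraries in 5 groups of 5. The table deposited by the authors holds whole-number counts for each gene, not normalised. Per the labels' protocols, RNA was polyA-selected and made into libraries with the Universal Plus mRNA-Seq kit. Tools named in the submitters' processing notes are DESeq2, featureCounts, Salmon and STAR, and the build is mRatBN7.2, with no roles. The sources used here do not give the strand setting. Overlapping, antisense and near-identical genes are therefore uncertain. The authors' deposited DESeq2 tables set supplement groups against sham and were not used.

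Of 34322 genes, 7 with empty cells were left out. edgeR 4.0.16 (R 4.3.3; TMM, filterByExpr, robust quasi-likelihood test, Benjamini-Hochberg adjustment, threshold 0.05) fitted all 25 libraries together, with a mean per group, on 21064 genes. The fit was tested on simulated counts. Standard errors are the log2 fold change over the root of the F statistic, and intervals are 95%. CPM were computed here after TMM scaling. No molecular identifiers are named, so reads may include copies of 1 molecule. The libraries held 27.3 to 44.9 M counts (M, 1e6), and libraries of a group differed by more than counting error.

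The members and gene lists were chosen with earlier results of these data known. Of 566 entries in 40 lists, 550 were in the table. The rule for named genes took Gfap, Cd68 and Bdnf, the genes called of largest change with a mean of at least 1 CPM or, with none called, the 10 of smallest p in each direction, and from each list the first 2 members, the 2 of smallest p and the highest and lowest. Not all of these are described, and some are not reported here. Alternatives tried were size factors of DESeq2, no filter, a filter at 1 CPM in 5 libraries, DESeq2 1.42.0, limma 3.58.1 voom with quality weights, only the groups compared, a replicate block, and leaving out each library. After seeing the data, a fit without TNF-CCI 1 and Vehicle-CCI 3 and 1 with the log2 of the mitochondrial rRNA share as covariate were added. Promoters were matched to the RefSeq table of GRCr8 by symbol.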

Additional observations from a re-analysis of the deposited data

Results flagged for a closer look

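Within each group of 5 libraries, the gap between the highest or lowest library and its nearest neighbour was set against the group's range, for the 92 genes named, the mitochondrial rRNA share and the depth. Of 188 such groups, 33 had a library beyond Dixon's 95% critical value of 0.71, in 9 of the 10 libraries. For normally distributed values, and genes chosen without regard to them, chance gives about 1 in 20. Whether these values are so distributed was not tested. Several of these genes were chosen because 1 library stood out or for a small p, so the 2 shares cannot be compared.

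TNF-CCI 1 was the highest of its group in 12 of them, all of them genes. It had 67.2 CPM of Bdnf, 62.3 of Timp1, 116 of Cd74, 237 of Arc, 94.8 of Npy and 49.8 of Bag3. It also had 21.9 CPM of Dbh, 56.3 of Trh, 67.5 of Ptgs2, 106 of Inhba, 157 of Lox and 30.8 of Sox11.

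TNF-CCI 2 was the highest of its group in the mitochondrial rRNA share (10.9%) and in mt-Rnr1 (26217 CPM), Idi1 (72.5 CPM), Cycs (479 CPM), Rpl37 (137 CPM) and Asb15 (40.9 CPM). TNF-CCI 5 was highest in Serpina3n (7.03 CPM), and TNF-CCI 4 was lowest in Dnah12 (54 CPM).

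In Vehicle-CCI, replicate 1 was highest in Cx3cr1 (43.3 CPM), Ifit1 (3.27 CPM) and Cd74 (77.9 CPM). Replicate 2 was highest in Serpina3n (0.806 CPM), Mt2A (112 CPM), LOC120100677 (3.83 CPM) and LOC120099832 (17.3 CPM). Replicate 3 was highest in Ttr (3757 CPM) and Kcnj13 (104 CPM). Replicate 4 was highest in Npy (19.7 CPM), Wfs1 (114 CPM) and Mbp (15601 CPM), and replicate 5 was lowest in F3 (14.5 CPM).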

How the results depend on the processing

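The edgeR count of 0 in TNF-CCI versus Vehicle-CCI was also 0 with DESeq2 size factors, no filter, a filter at 1 CPM, only the groups compared, a replicate block, the mitochondrial rRNA covariate, and without TNF-CCI 1 and Vehicle-CCI 3. It was 0 with each library left out, where the smallest edgeR adjusted p ran from 0.171 to 1. With voom the count was 0 too, and the smallest limma voom adjusted p was 0.103. With DESeq2 the count was 1. The genes at an unadjusted p under 0.05 numbered 1730 with voom, 443 without TNF-CCI 1 and Vehicle-CCI 3, and 501 to 1541 with each library left out. TNF-CCI versus Vehicle-sham gave 1444 calls with DESeq2, 946 with voom, 197 with only the groups compared, 0 without TNF-CCI 1 and Vehicle-CCI 3, and 0 to 1563 with each library left out. Vehicle-CCI versus Vehicle-sham gave 254 with DESeq2 and 0 to 368 with each library left out. TNF-CCI versus the mean of TD-CCI and TCF-CCI gave 1 with no filter, 1 with DESeq2, 15 with voom and 0 to 2 with each library left out. The difference in mitochondrial rRNA share ran from -4.53 to -2.52 percentage points with each library left out. Only without TNF-CCI 2 was its p under 0.05 (exact two-sided permutation test, p = 0.00794).

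Library numbers were not treated as pairs, and 5 pairs are too few to settle whether they are. Same-numbered TNF-CCI and Vehicle-CCI libraries deviated together (correlation over 0.1) in 3 of 5 pairs, and 1 of 5 correlated best with its own number. A replicate block gave 1190 calls in TNF-CCI versus Vehicle-sham and 1 in Vehicle-CCI versus Vehicle-sham, and gave a log2 fold change of 0.04 for Mbp, with the sign turned. Its counts for the other 2 comparisons were 0.

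Of the 92 genes named, 69 had the same sign in every alternative. The sign turned, to log2 fold changes of -0.21 for Tnf, -0.37 for Cd74, -0.49 for RT1-Da, 0.06 for Bok and 0.17 for Mbp, with voom. It turned to -0.10 for Cd68, -0.31 for Cx3cr1, -0.10 for C1qa, -0.13 for Tnf, -0.04 for Tgfb1, -0.08 for Tnfrsf1a, -0.76 for Cd74, -0.16 for RT1-Da, 0.01 for Gad1, -0.01 for Npy, -0.13 for Cldn5, 0.80 for Ttr, 0.42 for Kcnj13, -0.03 for Dbh and -0.04 for Inhba without TNF-CCI 1 and Vehicle-CCI 3, a setting chosen after seeing the data. With the mitochondrial rRNA covariate it turned to -0.13 for Cx3cr1, -0.02 for C1qa, -0.03 for Tnfrsf1a, -0.11 for Cd74, 0.03 for Gad1, 0.08 for Kcnd2, -0.35 for Wfs1, -0.06 for Cldn5 and 0.91 for Hbb. With each library left out the ranges that cross 0 were -0.06 to 0.47 for Bdnf, -0.18 to 0.49 for Cx3cr1, -0.01 to 0.44 for C1qa, -0.33 to 0.22 for Il1b, -0.59 to 1.20 for Cd74, -0.14 to 1.09 for RT1-Da, -0.08 to 1.13 for Wfs1, -0.20 to 0.19 for Bok, -0.25 to 0.31 for Mbp, -0.06 to 0.17 for Cldn5, -5.45 to 0.58 for Ttr, -4.44 to 0.36 for Kcnj13, -0.54 to 0.05 for Hbb, -0.03 to 3.37 for Dbh, -0.22 to 1.78 for Inhba and -0.14 to 4.86 for Asb15. List medians were computed only with DESeq2 size factors, the filter at 1 CPM and libraries left out. Of 40 list medians, 4 moved there by more than their SD over the 5 TNF-CCI libraries (dentate granule neurons, neurogenesis and proliferation, mural cells and choroid plexus). That SD includes libraries that stood apart, so a median within it was not thereby stable. MHC class II stayed within it, though its median of 0.41 fell as low as -0.34 with 1 library left out. The causes were not tested. What depth limits was not tested, and it differed between the groups.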

Other observations

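The transfer RNA genes of the mitochondrial chromosome, which no list held and which were chosen after their values were seen, leaned 1 way. All 22 tested had a log2 fold change below 0 in TNF-CCI versus Vehicle-CCI, from -2.08 to -0.16 with a median of -0.74, and 8 had an unadjusted edgeR p under 0.05 (1.77% of all genes on the lower side). Trna was at 1.38, 1.61, 1.77, 1.77 and 1.19 CPM in Vehicle-CCI 1 to 5 and at 0.39, 0.79, 0.24, 0.13 and 0.29 CPM in TNF-CCI 1 to 5, without overlap. Trnp was at 330.75, 376.69, 595.70, 364.88 and 265.76 CPM in Vehicle-CCI and at 166.63, 321.64, 31.53, 21.35 and 140.42 CPM in TNF-CCI. TNF-CCI 3 and 4 were the lowest of the 10 in Trnp, Trnr, Trns2 and Trnl2, and TNF-CCI 2 was within or above the Vehicle-CCI range in Trnp, Trnr, Trns2 and Trnl2. In TNF-CCI versus the mean of TD-CCI and TCF-CCI, limma voom with quality weights called 15 genes, among them Trnp, Trnr, Trnh, Trns2 and Trnl2, all lower in TNF-CCI. The 22 genes share 1 chromosome and its transcripts, so they are not separate measurements, and the part of depth and of the mitochondrial rRNA share, lower in 4 of 5 TNF-CCI libraries, was not tested.

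Fam111a and LOC100912642, on different chromosomes, were high in the same 3 TNF-CCI libraries and in TD-CCI 5, at 44.6 and 5.61 CPM there against at most 1.70 and 0.348 CPM in the other TD-CCI and TCF-CCI libraries. In TNF-CCI versus the mean of TD-CCI and TCF-CCI both had an edgeR adjusted p of 0.770 with all libraries. Only the fit without TD-CCI 5, of those that leave out 1 library, called them (edgeR adjusted p = 0.00312 for Fam111a and 0.0486 for LOC100912642), and it takes away the 1 high library outside TNF-CCI.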
